A study of Mus musculus with 75 samples.

Results

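The mitochondrial ribosomal proteins were taken as every gene whose symbol begins with Mrpl or Mrps followed by a digit, which gave 79 of the 13856 genes in the table. Of these, 50 carry an Mrpl symbol and 29 an Mrps symbol; 78 are protein-coding genes and 1, Mrpl23-ps1, is a pseudogene. They were measured by RNA sequencing in gastrocnemius, a calf muscle, of Balb/c mice of both sexes. In each sex 4 groups carried C26 cells, a mouse colon carcinoma line injected on both sides, and received 5-fluorouracil, paclitaxel, cisplatin or saline as vehicle. The other group was injected with PBS and given saline, so it had neither tumour nor drug. From day 12 the mice were given drug or saline over 2 cycles. The dose of each drug was 75% of the maximum tolerated, and muscle was taken on day 25. No group received a drug without a tumour, so each drug is set against tumour-bearing mice given saline and against PBS mice. The mice's age is not given in the sources used here.

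Mitochondrial ribosomes lie in the mitochondrial matrix and translate the 13 proteins that mitochondrial DNA encodes, all of them subunits of the respiratory chain and ATP synthase. Their RNA comes from mitochondrial DNA, but all of their proteins are encoded in the nucleus, made in the cytosol and imported. The small subunit reads the messenger RNA and the large subunit forms the peptide bond. Many proteins of both subunits have no counterpart in bacterial ribosomes. Muscle, with its high demand for respiration, is rich in these ribosomes' products.

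There were 73 libraries: in males 8 with 5-fluorouracil, 6 with paclitaxel, 8 with cisplatin, 8 with tumour and saline and 8 with PBS, and in females 8, 7, 6, 7 and 7 in that order. A further library, whose labels conflict, was not used. The labels give every sample the same batch. Depth recovered from the values was 11.4 to 40.5 M estimated counts (median 22.5 M). In 19 libraries genes rich in G and C read higher: a rise of 1 SD in transcript GC content went with more than 0.1 on the log2 scale, a GC slope over 0.1. These were 4 of 8 male 5-fluorouracil, 4 of 6 male paclitaxel, 2 of 8 male cisplatin, 0 of 8 male tumour with saline and 2 of 8 male PBS libraries, and 2 of 8, 2 of 7, 0 of 6, 1 of 7 and 2 of 7 in females in the same order. The protein genes of mitochondrial DNA took a median of 2.58% of all expression in these 19 and 10.5% in the other 54. The 10 muscle fibre markers summed to 1.03e+05 to 2.86e+05 ppm (parts of a library's back-transformed expression, scaled as CPM), and 0 of them were at 0 counts in any library.

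All 79 genes were detected in every library. Their median level was 4.88 on the log2 scale, against 3.37 over all genes, and together they took 0.209 to 0.320% of all expression. The highest mean log2 levels were those of Mrpl42, Mrpl15 and Mrpl51, at 6.95, 6.52 and 6.50, and the lowest those of Mrps22, Mrps6 and Mrpl23, at 3.35, 3.18 and 1.76. Levels of different genes were also set per kilobase of each gene's reference transcript. Mrps21 and Mrpl14 then led with log2 levels of 7.01 and 6.70, and Mrps22, Mrpl19 and Mrpl23 came last with 1.63, 1.24 and -0.13. The transcript forms present in muscle were not determined, so this order is approximate. Mrpl23 has a close copy in the pseudogene Mrpl23-ps1, and 85.5 to 97.7% of the pair's sum was assigned to the copy, so the split between them is uncertain. Transcripts of the 79 genes were short, with a median of 1849 bases against 3380 over all genes, and their median GC content was 49.8% against 50.1%.

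Averaged over the 79 genes, group means lay between -0.06 and 0.11. Relative to the series mean, it was 0.11 ± 0.11 in males with 5-fluorouracil, 0.03 ± 0.12 with paclitaxel, 0.00 ± 0.16 with cisplatin, -0.06 ± 0.14 with tumour and saline and 0.07 ± 0.12 with PBS (log2, SD; n as above). In females it was -0.01 ± 0.12 with 5-fluorouracil, -0.04 ± 0.13 with paclitaxel, -0.06 ± 0.12 with cisplatin, -0.04 ± 0.07 with tumour and saline and -0.03 ± 0.12 with PBS. Within each sex the libraries of all groups overlapped, and neighbours in the order of the means lay closer than their SD. The means of males with 5-fluorouracil and males with tumour and saline lay further apart than the SD of either group.

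**Figure D1:**
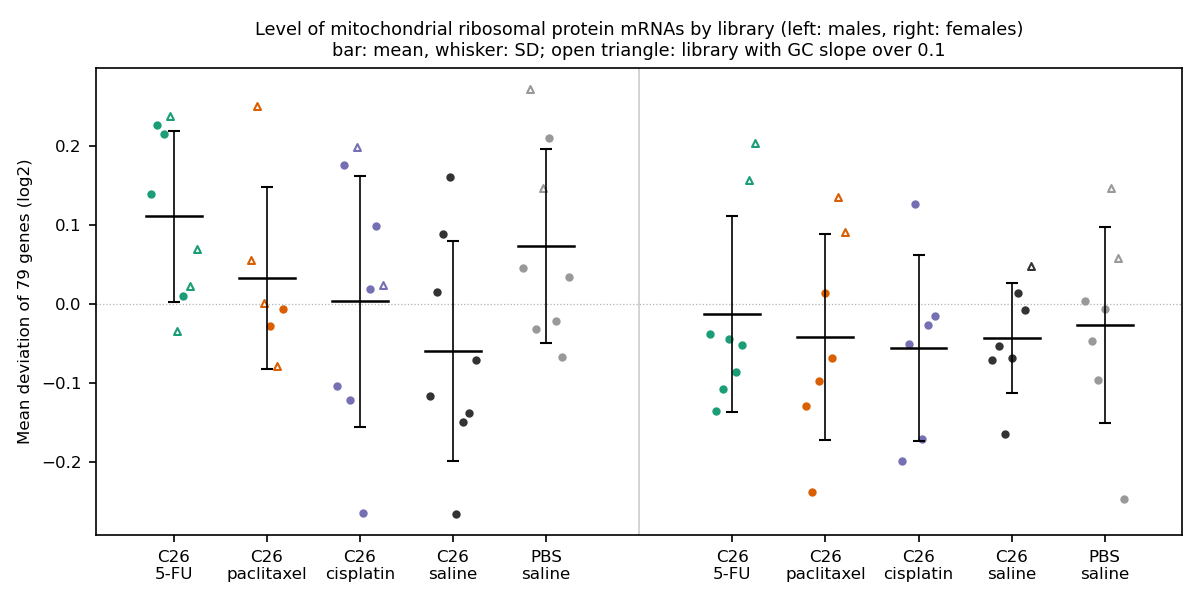
Mean log2 deviation of the 79 mRNAs from their mean over the series, one point per library, with group means (bars) and SD (whiskers); open triangles are libraries with a GC slope over 0.1. Male means lie between -0.06 with tumour and saline and 0.11 with 5-fluorouracil, and the libraries of the groups overlap.

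In males with tumour and saline against PBS, 12 of the 79 fell and 1 rose at a limma adjusted p under 0.05, while 13% of all genes fell and 13.1% rose. The share that fell was near that of all genes and the share that rose was below it. The median difference of the 79 was -0.12, against 0.00 over all genes, and 57 were lower. Mrpl48 and Mrpl19 stood at 61.1% and 62.0% of their PBS level. Mrps30, the gene that rose, is named for the small subunit but lies in the large one.

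Mrpl48, a large-subunit protein with no bacterial counterpart, had log2 values of 3.89, 4.26 and 4.85 (lowest, median and highest) in males with tumour and saline, against 4.88, 4.93 and 5.18 in males with PBS. All 8 tumour libraries lay below every PBS library. The difference was -0.71 ± 0.10 (log2, SE; limma adjusted p = 2.53e-07). Such separation below PBS was found for 2 of the 79 members and for 299 of all 13856 genes. Separation alone therefore says nothing particular of the members.

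Mrpl19, a large-subunit protein that bacteria also have, had 2.52, 3.18 and 3.47 with tumour and saline against 3.55, 3.81 and 4.03 with PBS. Again the groups did not overlap, with a difference of -0.69 ± 0.12 (limma adjusted p = 4.33e-06). Mrpl18, a protein of the central protuberance of the large subunit, had 4.93, 5.54 and 5.79 against 5.55, 5.85 and 6.01 with PBS. All 8 tumour libraries lay under the PBS mean and 4 under every PBS library (-0.40 ± 0.08, limma adjusted p = 1.97e-04).

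Mrpl46 and Mrpl45 have no bacterial counterpart, and Mrpl45 sits at the exit of the peptide tunnel, where the ribosome meets the inner membrane. Mrpl46 had 3.19, 3.75 and 4.14 with tumour and saline against 4.01, 4.13 and 4.49 with PBS (-0.44 ± 0.11, limma adjusted p = 0.00124). Mrpl45 had 4.82, 5.24 and 5.50 against 5.46, 5.61 and 5.87 with PBS (-0.42 ± 0.10, limma adjusted p = 0.00141). For each, all 8 tumour libraries lay below the PBS mean and 6 below every PBS library.

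Mrpl28 and Mrpl12, of which Mrpl12 forms the stalk that engages translation factors, fell with wider spread. Mrpl28 had 4.51, 5.13 and 5.53 with tumour and saline against 5.17, 5.37 and 5.82 with PBS (-0.42 ± 0.15, limma adjusted p = 0.0239). Mrpl12 had 5.67, 6.16 and 6.67 against 6.12, 6.53 and 7.20 with PBS (-0.45 ± 0.17, limma adjusted p = 0.0376). In each, 7 of 8 tumour libraries lay below the PBS mean and the groups overlapped. The call of Mrpl12 was lost on leaving out any of 6 single libraries and that of Mrpl28 any of 4. Mrpl49, Mrpl16, Mrps22, Mrpl42 and Mrps11 also fell, by 0.25 ± 0.08, 0.31 ± 0.10, 0.37 ± 0.12, 0.33 ± 0.12 and 0.47 ± 0.17.

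Mrps30 had 4.57, 4.83 and 5.06 with tumour and saline against 4.18, 4.43 and 4.69 with PBS. All 8 tumour libraries exceeded the PBS mean and 5 exceeded every PBS library (0.40 ± 0.09, limma adjusted p = 8.13e-04).

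By role, 5 of the 30 large-subunit proteins with a bacterial counterpart fell, and of the 21 specific to mitochondria 5 fell and Mrps30 rose. In the small subunit 1 of 16 with a bacterial counterpart fell, Mrps11, and 1 of 10 specific to mitochondria, Mrps22. Among members named for their roles that did not pass, the decoding-centre protein Mrps12 differed by -0.36 ± 0.27 (limma adjusted p = 0.349) and Mrpl47 by -0.35 ± 0.19. The peptidyl-tRNA hydrolase Mrpl58 differed by -0.19 ± 0.11, the stalk proteins Mrpl10 and Mrpl11 by -0.18 ± 0.08 and 0.00 ± 0.07, and Mrpl44 and Mrpl34 by -0.17 ± 0.10 and -0.15 ± 0.18. The small-subunit proteins Mrps18b, Mrps27 and Mrps34 differed by 0.11 ± 0.09, -0.14 ± 0.10 and 0.00 ± 0.18. Mrps36, which later work places in the 2-oxoglutarate dehydrogenase complex, differed by -0.27 ± 0.15.

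All 13 calls held in each of 9 other fits, among them those with the GC slope or the mitochondrial share as a covariate and that without the 19 libraries of high slope. The count of 13 was 20 or more in 5 of these fits: 22 with quantile normalization, 23 with quality weights, 24 with the GC slope, 20 without the high-slope libraries and 29 with the mitochondrial share, where 27.6%, 36.7%, 40.7%, 36.4% and 40.1% of all genes passed. Without tumour replicate 5 it was 7, and leaving out each library in turn gave 7 to 17. In the same comparison 7 of 7 neutrophil markers rose, summing to 10.2, 27.4 and 33.2 ppm (lowest, median and highest) with tumour and saline against 1.43, 2.59 and 12.3 with PBS. Of the macrophage markers 7 of 9 rose, with sums of 80.9, 154 and 223 ppm against 64.5, 84.8 and 95.2 with PBS. Of the neutrophil markers 6 were at 0 counts in some library and 0 in all libraries; 0 macrophage markers were at 0 anywhere. Of the muscle fibre markers 1 of 10 fell, with sums of 1.03e+05, 1.33e+05 and 2.12e+05 ppm against 1.49e+05, 1.65e+05 and 2.21e+05 with PBS. The part of these cells in the result was not tested, and in whole muscle fewer cells of a type and less RNA per cell cannot be told apart.

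The start sites of 4 of these genes are shown because these genes fell, and because promoters of mitochondrial ribosomal proteins are known to include sites for NRF1 and GABP, activators of nuclear genes for mitochondrial proteins. Each window runs from 250 bases before the annotated start to 50 after it, 5′ to 3′ on the gene's strand (RefSeq, GRCm38.p6). Capitals mark a GABP-type motif, CCGGAAGT, or an NRF1-type motif, GCGCA followed by any base and GCGC, searched on both strands. The 4 have the smallest adjusted p in the male tumour comparison among members with a window that holds either motif. The window of Mrpl12, which also fell and is not shown, holds the NRF1-type motif. Windows of Mrpl46, Mrpl49, Mrpl16, Mrpl28, Mrpl42 and Mrps11, which fell too, hold neither motif. Members that were not called also have windows with a motif, and that of Mrps26 holds both. The Mrpl48 window shown is chr7:100583081-100583380 on the minus strand, 1 of 4 start sites listed for this gene. It is the most downstream of them, and the other 3 windows hold neither motif. Mrpl18, Mrpl45 and Mrps22 have 1 window each. Mrpl18 lies at chr17:12916042-12916341 on the minus strand, Mrpl45 at chr11:97315466-97315765 on the plus strand and Mrps22 at chr9:98601630-98601929 on the minus strand.
Mrpl48: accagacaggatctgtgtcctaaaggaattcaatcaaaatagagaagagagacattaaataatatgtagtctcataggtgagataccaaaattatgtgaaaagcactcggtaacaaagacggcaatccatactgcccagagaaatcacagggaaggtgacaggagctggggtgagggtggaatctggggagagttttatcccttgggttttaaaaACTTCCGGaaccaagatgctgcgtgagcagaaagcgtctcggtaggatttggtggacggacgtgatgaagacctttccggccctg
Mrpl18: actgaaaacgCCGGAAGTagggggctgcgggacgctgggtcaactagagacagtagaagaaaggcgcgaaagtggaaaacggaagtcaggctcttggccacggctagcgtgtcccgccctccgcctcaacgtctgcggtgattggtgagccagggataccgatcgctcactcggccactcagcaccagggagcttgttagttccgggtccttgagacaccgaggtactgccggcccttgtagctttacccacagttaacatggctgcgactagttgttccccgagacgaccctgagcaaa
Mrpl45: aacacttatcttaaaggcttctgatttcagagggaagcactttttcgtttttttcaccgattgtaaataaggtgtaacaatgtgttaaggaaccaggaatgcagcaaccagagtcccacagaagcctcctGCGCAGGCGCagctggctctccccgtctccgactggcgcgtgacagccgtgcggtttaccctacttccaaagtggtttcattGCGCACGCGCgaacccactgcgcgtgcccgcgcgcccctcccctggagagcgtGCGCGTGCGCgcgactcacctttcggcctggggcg
Mrps22: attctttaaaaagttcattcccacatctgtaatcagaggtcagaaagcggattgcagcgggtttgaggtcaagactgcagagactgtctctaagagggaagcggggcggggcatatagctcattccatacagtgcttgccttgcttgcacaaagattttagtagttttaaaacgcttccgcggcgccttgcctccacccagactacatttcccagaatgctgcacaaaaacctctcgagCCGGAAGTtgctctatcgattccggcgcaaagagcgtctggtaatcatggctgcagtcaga
The windows shown for Mrpl48, Mrpl18 and Mrps22 hold 1 GABP-type motif each and that of Mrpl45 holds 3 NRF1-type motifs. An entry was found for 69 members, with 75 windows. The NRF1-type motif was in 13 of the 75 windows (17.3%) and in 4.60% of all 32851 windows, and the GABP-type motif in 12 (16.0%) and in 3.89% of all. The YY1-type motif ATGGCGGC, searched on both strands, was in 12 member windows (16.0%) and in 2.24% of all. A match describes letters only; binding was not measured. Members without an entry were Mrpl4, Mrpl13, Mrpl15, Mrpl19, Mrpl23-ps1, Mrpl38, Mrpl54, Mrps28, Mrps34 and Mrps35.

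**Figure D2:**
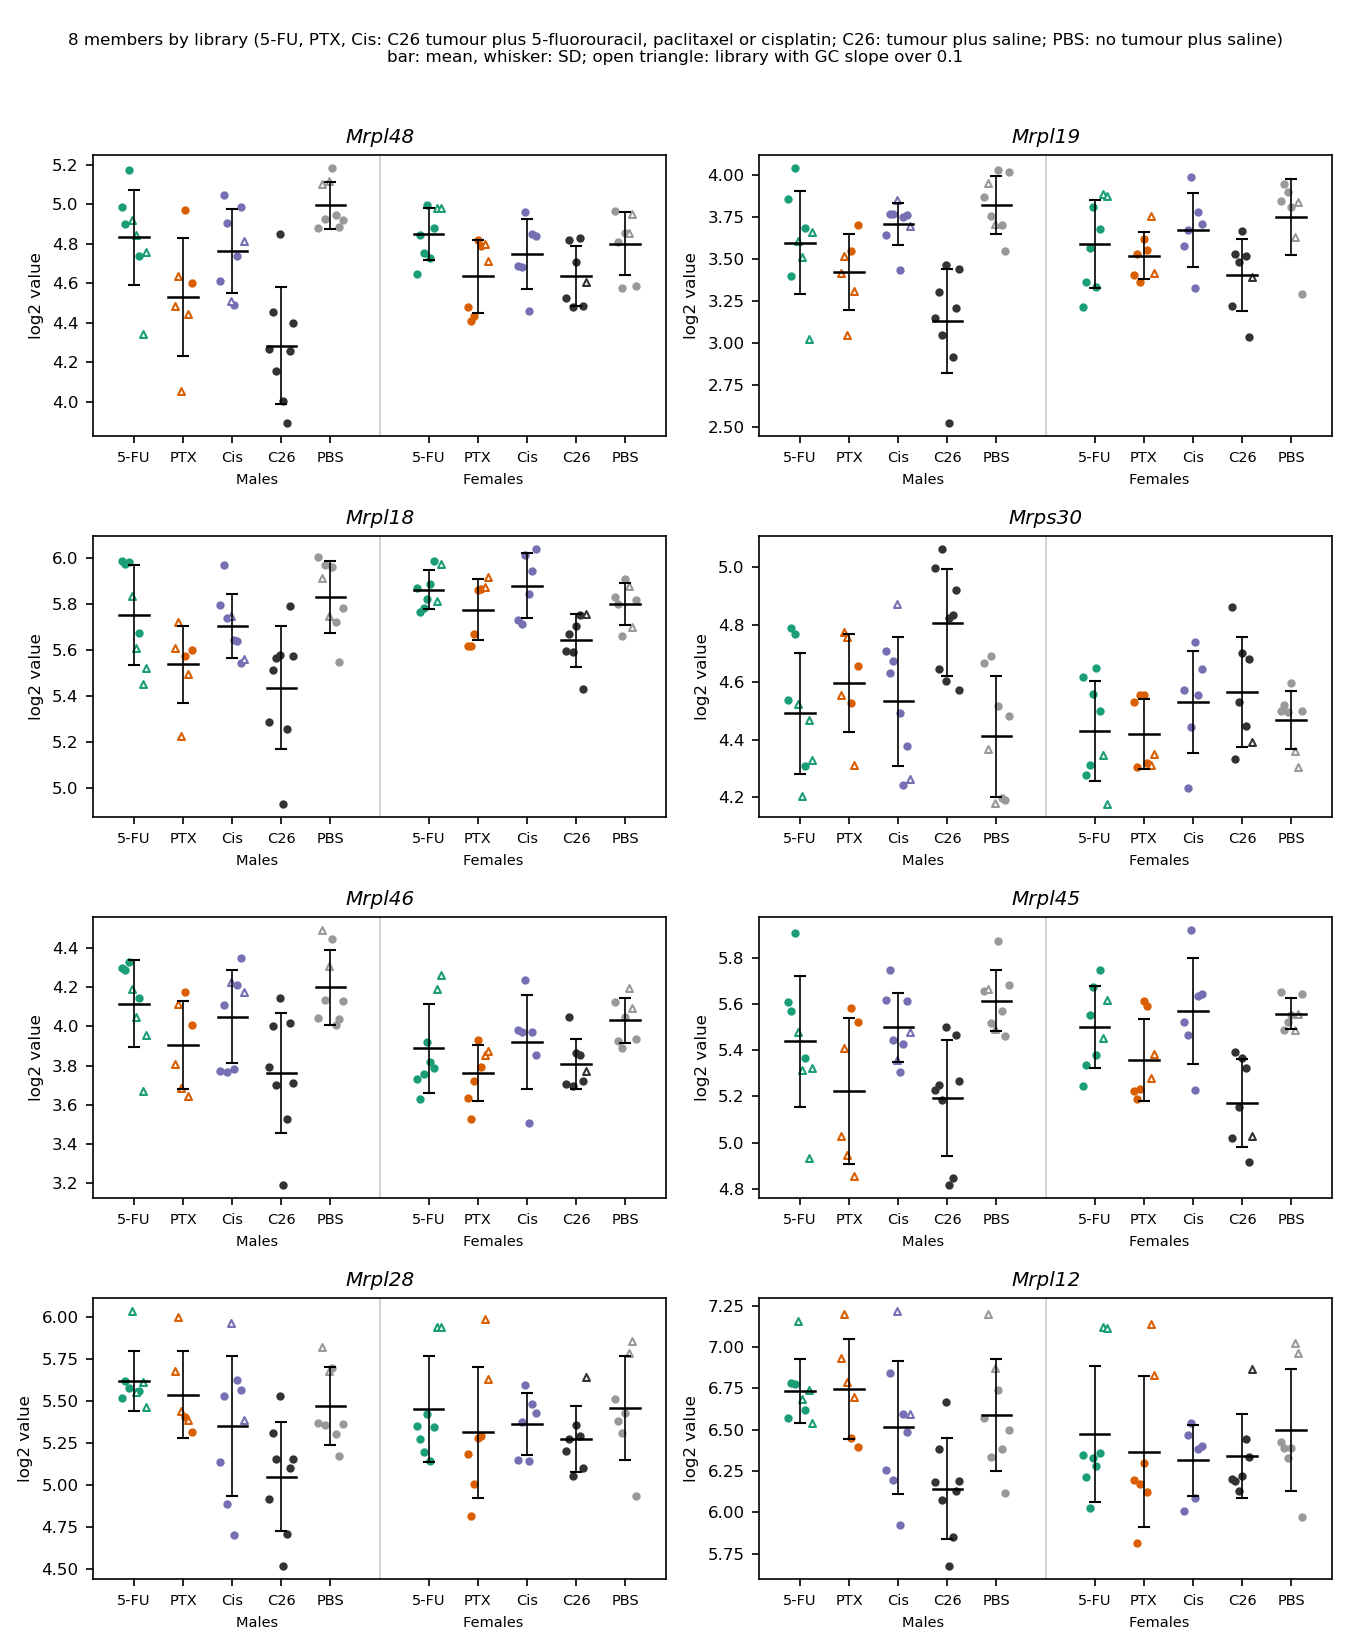
Log2 values of the 8 members described in full, one point per library, with group means (bars) and SD (whiskers), males left and females right; open triangles are libraries with a GC slope over 0.1. Male tumour libraries of Mrpl48 and Mrpl19 lie below every male PBS library, a separation found for 299 of all 13856 genes. The male Mrps30 mean is 4.81 with tumour and saline against 4.41 with PBS.

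In males given 5-fluorouracil, a pyrimidine analogue, 18 of the 79 rose and 1 fell against tumour and saline, while 11.3% of all genes rose and 12% fell. Their median difference was 0.17, against -0.03 over all genes, and 62 were higher. Those that rose included 9 of 30 large-subunit proteins with a bacterial counterpart, 5 of 21 specific to mitochondria and 4 of 16 small-subunit proteins with a bacterial counterpart. The saline libraries are those of the tumour comparison, so a value in them enters both.

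Mrpl48 had 4.34, 4.87 and 5.17 with 5-fluorouracil against 3.89, 4.26 and 4.85 with tumour and saline (0.55 ± 0.10, limma adjusted p = 1.13e-04). Mrpl19 had 3.02, 3.64 and 4.04 against 2.52, 3.18 and 3.47 with saline (0.47 ± 0.12, limma adjusted p = 0.00270). Mrpl18 had 5.45, 5.75 and 5.99 against 4.93, 5.54 and 5.79 with saline (0.32 ± 0.08, limma adjusted p = 0.00445). Above the saline mean stood 8, 7 and 8 of 8 drug libraries in these genes, and the groups overlapped in each.

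Mrpl12 had 6.54, 6.71 and 7.16 with 5-fluorouracil against 5.67, 6.16 and 6.67 with tumour and saline (0.59 ± 0.17, limma adjusted p = 0.00736). Mrpl28 had 5.47, 5.57 and 6.04 against 4.51, 5.13 and 5.53 with saline (0.57 ± 0.15, limma adjusted p = 0.00329). In both the lowest drug library stood above the saline median. Mrpl46 rose by 0.36 ± 0.11 and Mrps12, of the decoding centre, by 0.74 ± 0.27 (limma adjusted p = 0.0132 and 0.0389).

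Mrps30 had 4.20, 4.50 and 4.79 with 5-fluorouracil against 4.57, 4.83 and 5.06 with tumour and saline. All 8 drug libraries lay below the saline mean and 6 below every saline library (-0.32 ± 0.09, limma adjusted p = 0.0114). Mrpl45 differed by 0.24 ± 0.10 and did not pass (limma adjusted p = 0.0782).

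The genes that rose had a median transcript GC content of 53.0% against 48.8% in the 60 that were not called, and 4 of 8 drug libraries had a high GC slope against 0 of 8 saline libraries. With the slope as a covariate 10 of the 19 calls were kept, and without the high-slope libraries 14. Mrpl12, Mrpl19, Mrpl2, Mrpl28 and Mrpl48 kept theirs in all 9 other fits, and Mrps12 lost its call in both settings on GC. The count of 19 went to 8 without tumour replicate 5 and to 9 without 5-fluorouracil replicate 4. Leaving out each library in turn gave 8 to 27. The share of all genes that passed in these other fits is not given here, so the counts cannot be read as particular to the members. All 7 neutrophil markers fell, with sums of 1.74, 4.02 and 16.6 ppm with 5-fluorouracil against 10.2, 27.4 and 33.2 with tumour and saline. Macrophage markers fell in 4 of 9 cases, with sums of 78.2, 113 and 170 ppm with the drug against 80.9, 154 and 223 with saline. Muscle fibre markers summed to 1.58e+05, 1.78e+05 and 2.86e+05 ppm with the drug against 1.03e+05, 1.33e+05 and 2.12e+05 with saline. The part of these cells in the result was not tested.

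In males given cisplatin, a platinum compound that crosslinks DNA, 5 of the 79 rose and 1 fell against tumour and saline, beside 7.66% and 8.23% of all genes. The share that rose was near that of all genes, and the saline libraries are shared with the comparisons above. Mrpl19 had 3.44, 3.76 and 3.85 with cisplatin against 2.52, 3.18 and 3.47 with tumour and saline, and 7 of 8 cisplatin libraries exceeded every saline library (0.58 ± 0.12, limma adjusted p = 2.37e-04). Mrpl48 had 4.49, 4.78 and 5.05 against 3.89, 4.26 and 4.85 with saline (0.48 ± 0.10, limma adjusted p = 6.46e-04).

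Mrpl18, Mrpl45 and Mrps22 rose with cisplatin by 0.27 ± 0.08, 0.30 ± 0.10 and 0.33 ± 0.12 (limma adjusted p = 0.0195, 0.0356 and 0.0473), with all 8 cisplatin libraries above the saline mean in each. Mrps30 fell by 0.27 ± 0.09 (limma adjusted p = 0.0354). These 4 calls were lost when only the groups compared were fitted; those of Mrpl19 and Mrpl48 held in all 9 other fits and with any 1 library left out. The count of 6 went to 2 without tumour replicate 5 or 6, to 3 without tumour replicate 3 or cisplatin replicate 7, and to 11 without tumour replicate 4. All 7 neutrophil markers fell, with sums of 1.30, 5.27 and 12.4 ppm with cisplatin against 10.2, 27.4 and 33.2 with tumour and saline. Of the macrophage markers 3 of 9 fell, with sums of 81.3, 105 and 158 ppm against 80.9, 154 and 223 with saline. Muscle fibre markers summed to 1.43e+05, 1.78e+05 and 2.47e+05 ppm with cisplatin against 1.03e+05, 1.33e+05 and 2.12e+05 with saline. The part of these cells was not tested. The count of 6 was 10, 12 and 11 with quality weights, the GC slope and the mitochondrial share, where 20.6%, 28.6% and 28.6% of all genes passed.

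In males given paclitaxel, which stabilises microtubules, 19 of the 79 rose and 7 fell against tumour and saline, beside 13.5% and 18.5% of all genes. The genes that rose had a median transcript GC content of 55.1% and those that fell 44.5%, with 41.6% to 45.6% in all 7. Of the paclitaxel libraries 4 of 6 had a high GC slope, against 0 of 8 saline libraries. With the slope as a covariate 0 of the 26 calls were kept. Without the high-slope libraries 1 was kept, Mrpl10, and with the mitochondrial share as a covariate 1, Mrps17. The share of all genes that passed in these fits is not given here, so the loss cannot be read as particular to the members. The fit without high-slope libraries leaves out 4 of the 6 paclitaxel libraries. An effect of GC content on the calls cannot be told apart there from that of the smaller group. The count of 26 went to 7, 10 and 9 without paclitaxel replicate 1, 2 or 5, and leaving out each library in turn gave 7 to 30.

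Among the genes that rose, Mrps12 had 3.78, 5.06 and 5.41 with paclitaxel against 3.18, 3.80 and 4.42 with tumour and saline (0.94 ± 0.29, limma adjusted p = 0.0124). Mrpl2, near the catalytic centre, had 5.69, 6.41 and 6.71 against 5.50, 5.59 and 6.02 with saline (0.64 ± 0.18, limma adjusted p = 0.00820). In each, 4 of 6 paclitaxel libraries exceeded every saline library. Mrpl52, Mrpl12, Mrpl4 and Mrps24 rose by 0.74 ± 0.23, 0.60 ± 0.18, 0.58 ± 0.19 and 0.53 ± 0.17, and Mrpl28 by 0.49 ± 0.16.

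Among the genes that fell, Mrpl1, of the mobile stalk where spent tRNA leaves, had 2.37, 3.08 and 4.01 with paclitaxel against 3.93, 4.00 and 4.53 with tumour and saline (-0.91 ± 0.27, limma adjusted p = 0.00998). Mrpl3 had 4.39, 4.81 and 5.04 against 5.09, 5.24 and 5.34 with saline (-0.45 ± 0.12, limma adjusted p = 0.00604), and Mrps17 4.24, 4.34 and 4.50 against 4.45, 4.66 and 4.81 (-0.29 ± 0.08, limma adjusted p = 0.00509). Below every saline library lay 4, 6 and 5 of 6 paclitaxel libraries in these genes. All 6 lay below for 1 of the 79 members, Mrpl3, and for 161 of all 13856 genes. Mrpl47, Mrpl50 and Mrps31 fell by 0.69 ± 0.20, 0.62 ± 0.20 and 0.49 ± 0.18, but with the GC slope as a covariate Mrpl50 and Mrps31 stood at 0.0067 and 0.042.

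Of the 8 members described in full, Mrpl12 and Mrpl28 passed with paclitaxel and 6 did not. Mrpl48 had 4.05, 4.54 and 4.97 with paclitaxel against 3.89, 4.26 and 4.85 with tumour and saline (0.25 ± 0.11, limma adjusted p = 0.0810). Mrpl19 differed by 0.29 ± 0.13 and Mrps30 by -0.21 ± 0.10, and Mrpl46, Mrpl18 and Mrpl45 by 0.14 ± 0.12, 0.10 ± 0.09 and 0.03 ± 0.11. Of the 7 neutrophil markers 0 passed, with sums of 7.76, 15.2 and 32.7 ppm with paclitaxel against 10.2, 27.4 and 33.2 with tumour and saline. Of the macrophage markers 1 of 9 fell, and of the muscle fibre markers 3 of 10 rose.

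**Figure D3:**
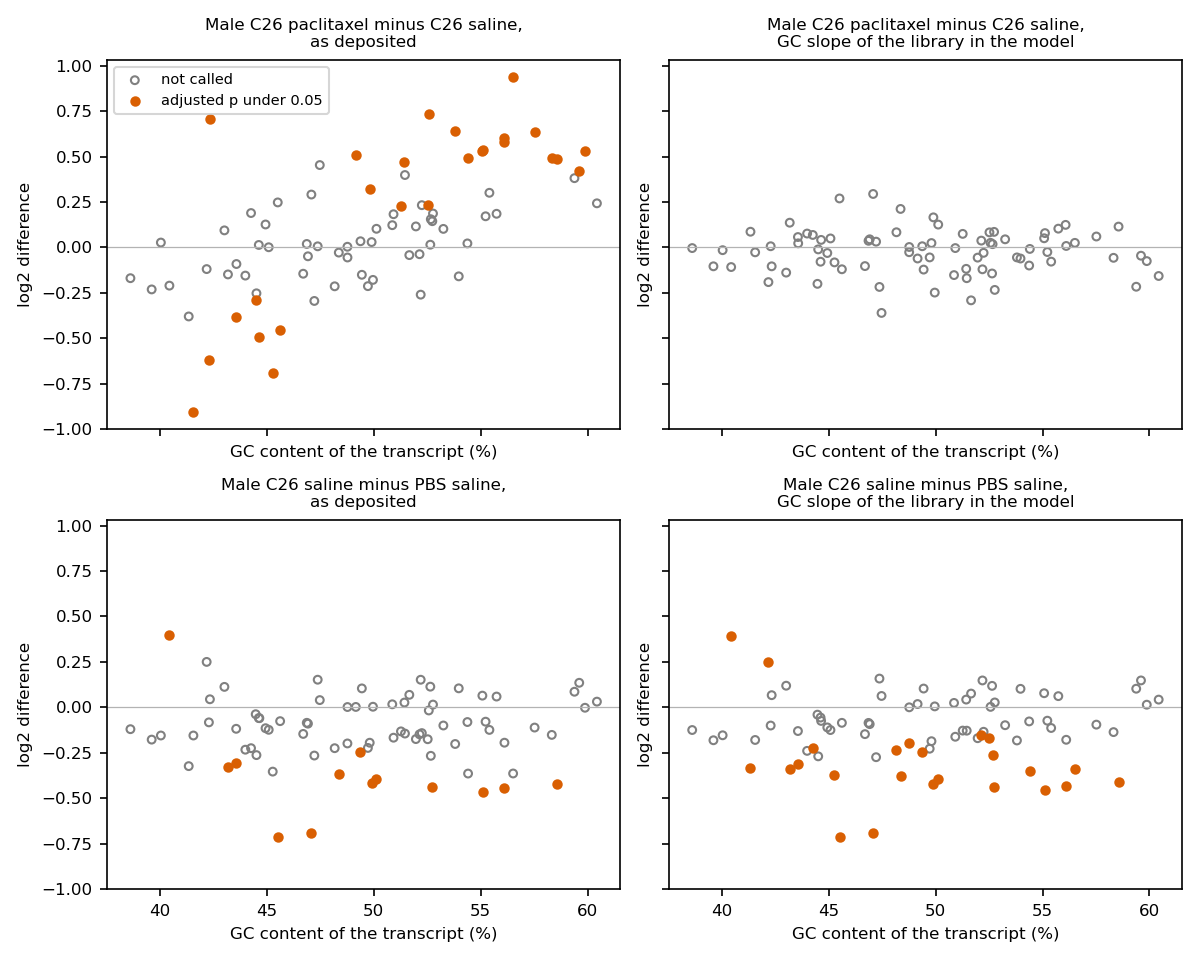
Log2 difference of each of the 79 genes against the GC content of its transcript (%), for male paclitaxel minus tumour with saline (top) and male tumour with saline minus PBS (bottom), from the deposited values (left) and with the library's GC slope in the model (right); filled points passed an adjusted p of 0.05. Calls number 26 and 0 for paclitaxel, and 13 and 24 for the tumour.

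**Figure D4:**
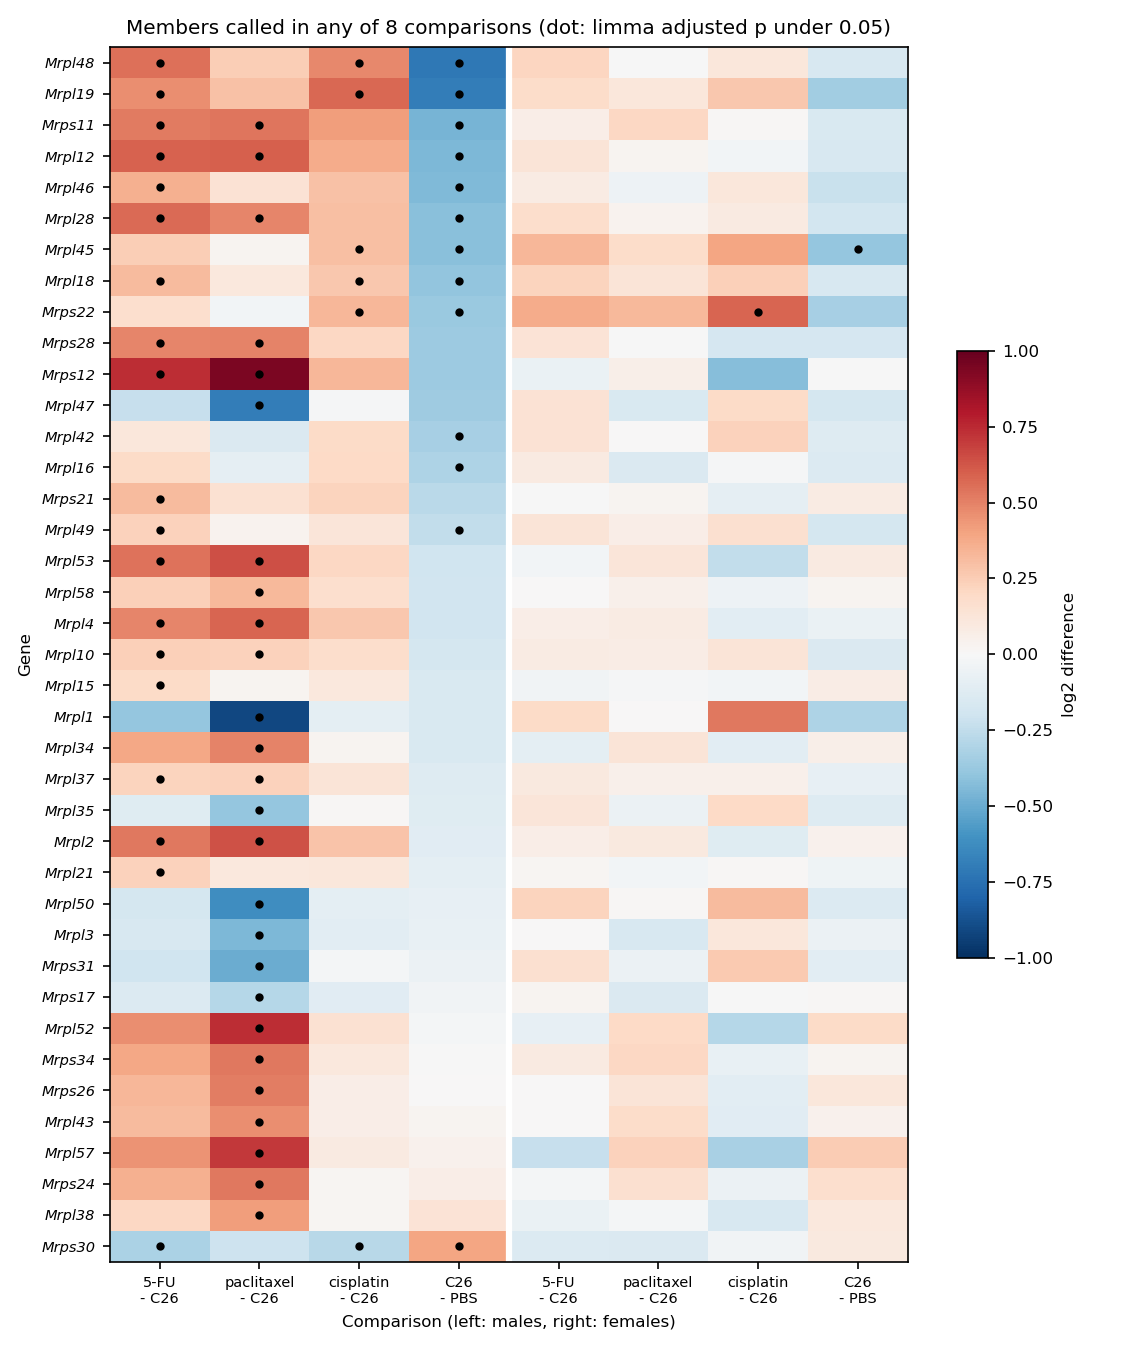
Log2 differences (colour) of the 39 members called in any of 8 comparisons, males left and females right, each drug minus C26 with saline and C26 with saline minus PBS; dots mark an adjusted p under 0.05. Mrpl48, Mrpl19, Mrpl18, Mrps30, Mrpl28, Mrpl12 and Mrps11 carry dots in 3 of the 4 male columns, and the female columns hold 2 dots in all.

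Against PBS, 0 of 79 members passed in males with 5-fluorouracil, where 4.76% of all genes did, and 0 with cisplatin, where 0.902% did. At an unadjusted limma p under 0.05, 6 were higher and 6 lower with 5-fluorouracil, and 0 higher and 4 lower with cisplatin. With quality weights 11 of 79 passed with 5-fluorouracil, where 23.8% of all genes did, and in 4 other fits 1 passed, so a count of 0 does not show that the level of PBS mice was reached. Macrophage markers rose in 2 of 9 cases with 5-fluorouracil. The PBS libraries are those of the tumour comparison. Mrpl48 differed from PBS by -0.16 ± 0.10 with 5-fluorouracil (95% interval -0.37 to 0.05) and by -0.23 ± 0.10 with cisplatin (95% interval -0.44 to -0.02), and Mrpl19 by -0.22 ± 0.12 and -0.11 ± 0.12. Smallest in p with 5-fluorouracil were Mrpl47 (-0.59 ± 0.19, limma adjusted p = 0.0510), Mrps24 (0.42 ± 0.16) and Mrps17 (-0.17 ± 0.07), and with cisplatin Mrps36 (-0.35 ± 0.15, limma adjusted p = 0.305), Mrpl48 and Mrpl33 (-0.24 ± 0.11).

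With paclitaxel against PBS, 9 members rose and 24 fell in males, beside 16.9% and 20.6% of all genes. Mrpl47 stood at 48.4% of its PBS level (-1.05 ± 0.20, limma adjusted p = 2.03e-04), Mrpl1 at 47.9% (-1.06 ± 0.27) and Mrpl13 at 61.4% (-0.70 ± 0.16). Mrpl48 fell too (-0.46 ± 0.11, limma adjusted p = 0.00205), with 5 of 6 paclitaxel libraries below every PBS library, as did Mrpl3 (-0.53 ± 0.12) and Mrps17 (-0.32 ± 0.08). Mrpl38, Mrps24, Mrpl52, Mrpl2, Mrpl57 and Mrps26 rose, by 0.56 ± 0.16, 0.59 ± 0.17, 0.72 ± 0.23, 0.53 ± 0.18, 0.75 ± 0.27 and 0.51 ± 0.18. The genes that rose had a median GC content of 55.1% and those that fell 45.4%. Of the 33 calls 4 were kept with the GC slope as a covariate, Mrpl19, Mrpl47, Mrpl48 and Mrps17, and 0 without the high-slope libraries. For these fits too the share of all genes that passed is not given here. The fit without high-slope libraries leaves out most paclitaxel libraries, so calls can be lost through the smaller group. All 7 neutrophil markers rose, with sums of 7.76, 15.2 and 32.7 ppm with paclitaxel against 1.43, 2.59 and 12.3 with PBS. Macrophage markers rose in 7 of 9 cases, and their sums of 104, 155 and 236 ppm with paclitaxel did not overlap the 64.5, 84.8 and 95.2 with PBS. The part of these cells in the result was not tested.

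In females with tumour and saline against PBS, 1 of 79 passed, where 6.7% of all genes did. Mrpl45 had 4.92, 5.16 and 5.39 in females with tumour and saline against 5.49, 5.55 and 5.65 with PBS, and all 7 tumour libraries lay below every PBS library (-0.38 ± 0.11, limma adjusted p = 0.0227). Such separation below PBS was found for 1 of the 79 members and for 108 of all 13856 genes. The call of Mrpl45 was lost on leaving out tumour replicate 1 or 6, and 2 members passed without tumour replicate 4 or PBS replicate 7. Mrpl19 differed by -0.34 ± 0.12 (limma adjusted p = 0.0827), Mrps22 by -0.33 ± 0.13, Mrpl48 by -0.16 ± 0.11 (95% interval -0.39 to 0.06) and Mrps30 by 0.10 ± 0.10. Of the neutrophil markers 6 of 7 rose, with sums of 5.73, 12.7 and 37.4 ppm with tumour and saline against 1.10, 2.31 and 3.92 with PBS. Of the macrophage markers 5 of 9 rose, with sums of 118, 150 and 215 ppm against 60.1, 86.5 and 117 with PBS, and neither list's sums overlapped. Of 4 erythroid markers 1 rose, Alas2 (1.46 ± 0.47, limma adjusted p = 0.0434), with erythroid sums of 456, 732 and 1471 ppm against 239, 347 and 811 with PBS. The part of these cells was not tested. The count of 1 was 4, 3 and 5 with quality weights, the GC slope and no high-slope libraries, where 14.8%, 13.8% and 11.9% of all genes passed.

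In females with cisplatin against tumour and saline, 1 of 79 passed, where 1.66% of all genes did. Mrps22, a small-subunit protein specific to mitochondria, had 3.37, 3.67 and 3.84 with cisplatin against 2.69, 3.01 and 3.36 with tumour and saline. All 6 cisplatin libraries exceeded every saline library (0.58 ± 0.13, limma adjusted p = 0.00972), and the call held in all 9 other fits and with any 1 library left out. Such separation above saline was found for 1 of the 79 members and for 127 of all 13856 genes. Mrpl45 differed by 0.40 ± 0.12 (limma adjusted p = 0.0562), and 2 members passed without tumour replicate 2 or 4 or cisplatin replicate 4. With quality weights 8 passed, where 16.8% of all genes did. Of the neutrophil markers 2 of 7 fell, and their sums of 1.38, 3.63 and 5.25 ppm with cisplatin did not overlap the 5.73, 12.7 and 37.4 with tumour and saline. Of the macrophage markers 0 of 9 passed, with sums of 84.5, 101 and 144 ppm against 118, 150 and 215 with saline, and of the erythroid markers 0 of 4, with median sums of 321 against 732. The part of these cells was not tested.

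In females with 5-fluorouracil against tumour and saline 0 of 79 passed, where 1.35% of all genes did (3 higher and 0 lower at an unadjusted limma p under 0.05). Smallest in p were Mrpl45 (0.33 ± 0.11), Mrps22 (0.37 ± 0.12) and Mrpl18 (0.22 ± 0.09). With quality weights 2 passed, where 7.12% of all genes did. In this comparison 6 of 7 neutrophil and 4 of 9 macrophage markers fell.

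In females with paclitaxel 0 of 79 passed against tumour and saline, where 0% of all genes did (1 higher and 1 lower at an unadjusted limma p under 0.05), with Mrps22 (0.33 ± 0.13), Mrpl41 (-0.26 ± 0.13) and Mrps17 (-0.15 ± 0.08) smallest in p. Against PBS 0 of 79 passed with each drug, where 0.383% of all genes did with 5-fluorouracil, 4.58% with paclitaxel and 0.209% with cisplatin. At an unadjusted limma p under 0.05, 2 were higher and 0 lower with 5-fluorouracil, 4 and 5 with paclitaxel and 0 and 1 with cisplatin. The smallest p-values were those of Mrpl23 (0.38 ± 0.17), Mrpl30 and Mrpl19 with 5-fluorouracil, Mrpl16 (-0.28 ± 0.11), Mrpl39 and Mrps9 with paclitaxel, and Mrpl44 (-0.24 ± 0.11), Mrps22 and Mrps28 with cisplatin. With quality weights 4 passed with paclitaxel and 1 with cisplatin, where 13.8% and 6.26% of all genes did. With paclitaxel against PBS 4 of 7 neutrophil and 6 of 9 macrophage markers rose.

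The sexes were compared directly, as the male difference minus the female difference. For the tumour 0 of 79 members passed, where 0.0361% of all genes did, and for 5-fluorouracil, paclitaxel and cisplatin 0 of 79, where 0%, 0% and 0% did. With quality weights 22 of 79 passed for paclitaxel and 1 for the tumour, where 26.8% and 1.84% of all genes did. At an unadjusted limma p under 0.05, 1 member was higher and 5 lower for the tumour, 4 and 0 for 5-fluorouracil, 5 and 3 for paclitaxel and 2 and 0 for cisplatin. For Mrpl48 the tumour difference was -0.71 ± 0.10 in males and -0.16 ± 0.11 in females, a difference of -0.55 ± 0.15 (95% interval -0.85 to -0.24; limma adjusted p = 0.204). Next for the tumour were Mrpl15 (-0.23 ± 0.10) and Mrps30 (0.30 ± 0.14), while Mrpl45 differed by -0.03 ± 0.15 (95% interval -0.34 to 0.27). Smallest in p were Mrpl15 (0.23 ± 0.10), Mrpl48 and Mrps12 for 5-fluorouracil, Mrpl1 (-0.91 ± 0.38), Mrps35 and Mrpl12 for paclitaxel, and Mrpl48 (0.37 ± 0.16), Mrps35 and Mrps21 for cisplatin.

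Between males and females with PBS 0 of 79 passed, where 3.39% of all genes did (7 members higher in males and 0 lower at an unadjusted limma p under 0.05). The median difference was 0.11, against 0.00 over all genes, and 68 of 79 were higher in males. Nearest to passing were Mrpl15 (0.23 ± 0.07, limma adjusted p = 0.0502), Mrpl20 (0.26 ± 0.08, limma adjusted p = 0.0509) and Mrps2 (0.23 ± 0.08). With quality weights or the GC slope 6 passed, where 12.4% and 7.59% of all genes did, and 1 to 4 passed in 5 other fits. All 4 erythroid markers were higher in males, Alas2 by 1.93 ± 0.46, Hbb-bt by 1.86 ± 0.45, Hba-a1 by 1.73 ± 0.47 and Hba-a2 by 1.72 ± 0.44 (limma adjusted p = 0.00516, 0.00677, 0.0209 and 0.0113). Their sums were 577, 1053 and 4720 ppm in males with PBS and 239, 347 and 811 in females with PBS. Of the adipocyte markers 3 of 6 were lower in males, and the part of these cells was not tested.

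Genes that serve the mitochondrial ribosome were counted from lists chosen by function. Each count stands beside the share of all genes in its comparison, and shares near it say nothing particular of a list. In males with tumour and saline against PBS 13% of all genes fell and 13.1% rose. Of the translation factors 3 of 16 fell and 0 rose: Taco1, a translational activator of a cytochrome c oxidase subunit (-0.75 ± 0.13, limma adjusted p = 8.98e-06), Mtres1 (-0.37 ± 0.09) and the elongation factor Tsfm (-0.41 ± 0.15). Of 25 genes listed under ribosome assembly and rRNA modification 3 fell and 1 rose. Malsu1, which keeps the large subunit from joining early, rose (0.73 ± 0.11, limma adjusted p = 3.97e-07), while the rRNA methyltransferase Mrm2 (-0.78 ± 0.17) fell. Tmem177, which is counted in this list, also fell (-0.65 ± 0.12). Whether it has any part in ribosome assembly was not tested. Of 22 aminoacyl-tRNA synthetases and related enzymes 4 fell and 2 rose, Kars1 and Gars1, which also serve the cytosol (0.31 ± 0.06 and 0.37 ± 0.09).

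Against the same saline libraries, Taco1 rose by 0.56 ± 0.13 with 5-fluorouracil and 0.59 ± 0.13 with cisplatin, and Malsu1 fell by 0.40 ± 0.11 and 0.45 ± 0.11. Of all genes 11.3% rose and 12% fell with 5-fluorouracil, 13.5% and 18.5% with paclitaxel and 7.66% and 8.23% with cisplatin. Of 16 translation factors 4 rose and 0 fell with 5-fluorouracil, 3 and 3 with paclitaxel and 2 and 0 with cisplatin. Of 22 synthetases 7 rose and 2 fell with 5-fluorouracil, 5 and 2 with paclitaxel and 4 and 2 with cisplatin; Pars2, the prolyl enzyme, rose by 0.70 ± 0.17 with 5-fluorouracil and 0.74 ± 0.17 with cisplatin. Of the 5 ribosomal proteins under other symbols, 0 passed for the tumour, and Aurkaip1 rose with 5-fluorouracil (0.38 ± 0.13).

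Of the 13 proteins of mitochondrial DNA, made by these ribosomes, 0 passed in males for 5-fluorouracil, cisplatin or the tumour, with median differences of -0.56, -0.01 and -0.24. With paclitaxel 6 fell, beside 18.5% of all genes, with mt-Nd3 differing by -1.95 ± 0.64 (limma adjusted p = 0.0179), alongside the lower mitochondrial share in libraries of high GC slope. Of 15 regulators of mitochondrial biogenesis 5 rose and 4 fell for the tumour in males, beside 13.1% and 13% of all genes. Myc and the transcription factor Nrf1 rose (1.34 ± 0.23 and 0.48 ± 0.10), while the mitochondrial deacetylase Sirt3 fell (-0.80 ± 0.20). With 5-fluorouracil 3 rose, Perm1, Esrra and Sirt3 (0.91 ± 0.19, 0.92 ± 0.25 and 0.68 ± 0.20), and 2 fell, beside 11.3% and 12% of all genes. In females with tumour and saline, Kars1 (0.25 ± 0.06) and Myc (1.16 ± 0.24) were the genes of these lists that passed.

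**Figure D5:**
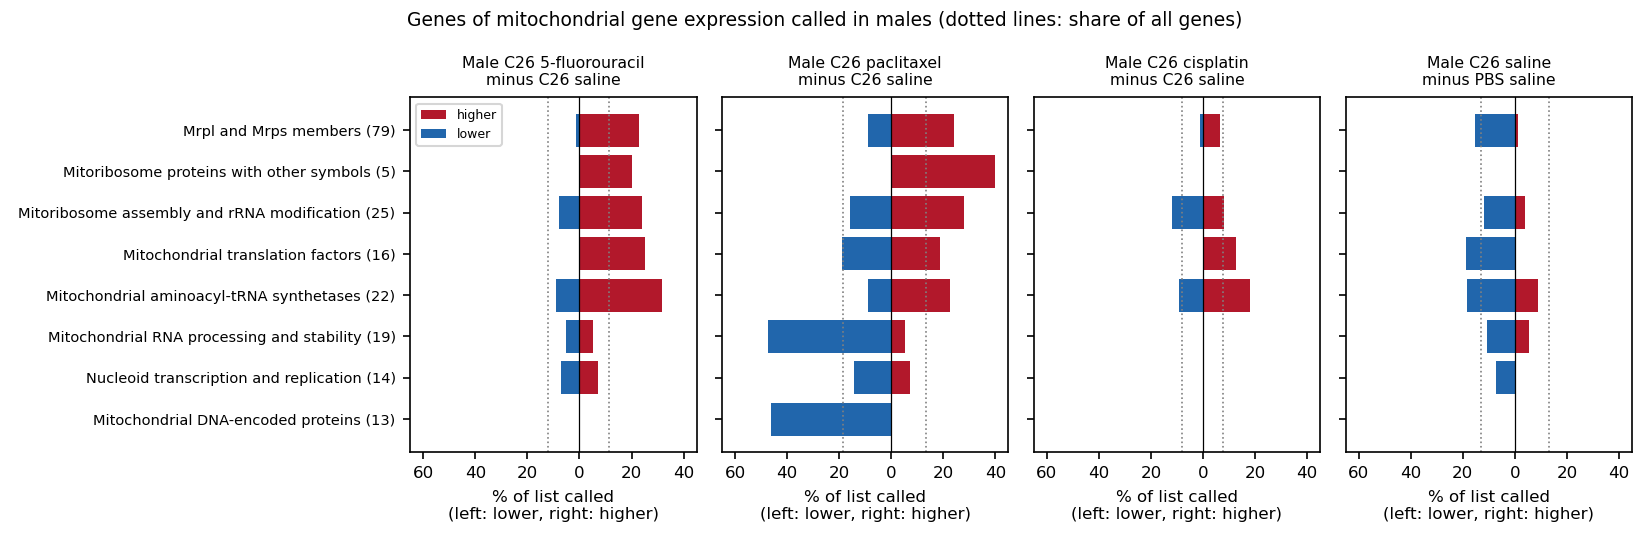
Share of each list called lower (left of 0) or higher (right of 0) at an adjusted p under 0.05 in 4 male comparisons, with the number of genes in brackets and dotted lines at the shares over all genes. With 5-fluorouracil 18 of 79 members and 7 of 22 synthetases are higher, and with tumour and saline 12 of 79 members and 3 of 16 translation factors are lower.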

How the data were processed

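RNA of gastrocnemius was sequenced as paired reads, per the labels' protocols. The authors deposited 1 table of log2 expression values per gene and library. The submitters' processing notes name FastQC, MultiQC, fastp, Salmon, edgeR, limma and the build GRCm39; how they were combined is not given in the sources used here. The lowest value of a library was read as a count of 0 with 0.5 added, which gave the depth; 85.0 to 90.7% of recovered counts were whole within 0.02.

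Group means were fitted to the log2 values with limma 3.58.1 (R 4.3.3, empirical Bayes with a trend) over 73 libraries and 13856 genes, with 63 residual degrees of freedom and Benjamini-Hochberg adjustment over all genes in each of 19 comparisons; calls have an adjusted p under 0.05. No filter was applied. A ± after a difference is the SE and after a group level the SD. The script was tested on simulated data. Transcript GC content and length came from GENCODE vM21 (79 of 79 members matched by gene ID). The reference transcript of a gene was that with the longest coding sequence and, among equals, the longest transcript. The GC slope used 10637 genes, with length in the model.

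Members named were 14 chosen for their roles, up to 6 called members of smallest adjusted p per comparison and direction (3 by unadjusted p where none was called), and the 3 highest and lowest levels. The 8 given in full were called in at least 2 of 8 main comparisons, ordered by smallest adjusted p. Members and lists were chosen with earlier results of these data known. Replicates are separately labelled samples. A limma p-value sets a difference against the spread between replicates, pooled over all groups of both sexes and not only those compared. Reads of close copies such as Mrpl23 and its pseudogene can be split between them. 1 library with conflicting labels and 1 labelled sample with no column were not used. Alternatives were 9 other fits and leaving out each library in turn.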

Additional observations from a re-analysis of the deposited data

Results flagged for a closer look

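Mrpl12 was 6.87 on the log2 scale in replicate 7 of the females with tumour and saline, where the other libraries of that group lay at 6.13 to 6.44, and that library had a GC slope of 0.439. Mrpl28 was 6.04 on the log2 scale in replicate 4 of the males with 5-fluorouracil, where the other libraries of that group lay at 5.47 to 5.62, and that library had a GC slope of 0.508. Mrpl12 was 7.16 on the log2 scale in replicate 4 of the males with 5-fluorouracil, where the other libraries of that group lay at 6.54 to 6.78, and that library had a GC slope of 0.508. Each value was set apart by its gap to the nearest library of its group. In all, 3 of 90 tests of a quantity within a group found such a value, and chance alone gives about 1 in 20. The part of GC content in these values was not tested.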

How the results depend on the processing

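Counts of called members moved as follows, with the reported count in brackets, and the causes were not tested. The share of all genes that passed is given above for only some of these fits. Without it a count says nothing particular of the members. The male tumour (13) gave 22, 23, 24, 20 and 29 with quantile normalization, quality weights, the GC slope as a covariate, no high-slope libraries and the mitochondrial share as a covariate. Male paclitaxel against tumour and saline (26) gave 0, 2 and 2 in the last 3 of these, and against PBS (33) 6, 0 and 7. Most male paclitaxel libraries are left out of the fit without high-slope libraries. Male cisplatin (6) gave 2, 10, 12 and 11 with only the groups compared, weights, GC slope and mitochondrial share; male 5-fluorouracil against PBS (0) gave 1, 1, 1, 11 and 1 with quantile normalization, 1 added before logs, a mean of at least 1, weights and the replicate block. The female tumour (1) gave 4, 3 and 5 and female 5-fluorouracil (0) 2, 1 and 1 with weights, GC slope and no high-slope libraries; female cisplatin (1) gave 2, 8 and 2 with quantile normalization, weights and no high-slope libraries. Female paclitaxel against PBS (0) gave 4, 2 and 1 with weights, GC slope and mitochondrial share, and female cisplatin against PBS (0) 1 with weights. With weights the sexes differed in 1 member for the tumour and 22 for paclitaxel. Males and females with PBS (0) gave 2, 2, 1, 1, 6, 6 and 4 with quantile normalization, 1 added, a mean of at least 1, only the groups compared, weights, GC slope and mitochondrial share. Leaving out 1 library gave 7 to 17 for the male tumour, 8 to 27 for 5-fluorouracil, 7 to 30 for paclitaxel and 2 to 11 for cisplatin, 22 to 42 and 0 to 2 for paclitaxel and 5-fluorouracil against PBS, 0 to 2 for the female tumour, 1 to 2 for female cisplatin, 0 to 1 for female paclitaxel against PBS, 0 to 1 for the sexes' tumour difference and 0 to 2 for the sexes with PBS. Called differences changed sign in the male paclitaxel comparisons only: against tumour and saline with the GC slope Mrpl50 (0.0067), Mrps31 (0.042), Mrpl34 (-0.057) and Mrps34 (-0.075), without high-slope libraries Mrps24 (-0.020), Mrpl50 (0.0051), Mrps31 (0.061) and Mrpl34 (-0.051), and against PBS with the GC slope Mrpl2 (-0.035), Mrpl57 (-0.037) and Mrps26 (-0.043). Of the values of named members under other fits, 2284 kept direction and side of the threshold, 149 that missed the threshold in both fits changed sign, 93 lost and 73 gained a call. Main fits did not pair libraries by replicate number. Same-numbered libraries of different groups correlated with a mean r of 0.158 in females and 0.0746 in males. For differently numbered libraries the mean r was -0.0119 and -0.00849. What the replicate numbers stand for is not given in the sources used here. With the replicate block the male tumour count was 17. A count model was not run, because the deposited values are log2. Depth was 11.4 to 40.5 M estimated counts, and 0 members were at 0 counts in any library.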
